A study of Mus musculus with 6 samples.

Results

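The TAFA genes, Tafa1 to Tafa5 (formerly Fam19a1 to Fam19a5), encode small secreted proteins of the nervous system that are also called neurokines. The family was chosen by gene symbol, with the low level of Tafa1 in these same mutant arrays already known. The differences of its members between mutants and controls are therefore given as a description, without p-values. All 5 genes were found among the 19938 genes that could be tested, and each was represented by exactly 1 probe set, so keeping, for each gene, its brightest probe set by the average of the 6 arrays left none out.

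Dentate granule cells came from mice of the tet-off line, in which floxed Bcl11b/Ctip2 alleles are combined with tetO-Cre and CaMKIIα-tTA. The CaMKIIα promoter is active in excitatory neurons of the whole forebrain, so the mutation is not limited to the granule cells that were collected. Both groups, 3 controls and 3 mutants, drank doxycycline from embryonic stages until 2 months of age, and tissue was taken 4 weeks after its removal. The sources used here give neither the exact genotype of the controls of this line nor whether 1 array holds 1 animal, so p-values cover no more than the spread among the 6 samples. Values are log2 expression values, on which a difference of 1 is a factor of 2. The targeted gene Bcl11b was at 10.56, 10.40 and 10.30 in the controls and at 9.03, 8.68 and 8.82 in the mutants, which is -1.58 on the log2 scale (limma adjusted p = 2.56e-05, standard error, SE, 0.0988). All 3 mutants lay below all 3 controls, as their labels require.

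TAFA proteins are short, rich in cysteines and distantly similar to CC chemokines. TAFA1 to TAFA4 bind neurexins, the presynaptic adhesion molecules that organize synapses across the cleft, while both are still inside the secretory pathway of the same cell. This binding limits the heparan sulfate chains that are attached to neurexins. TAFA5 is more distant in sequence, and other partners have been described for it, such as the sphingosine phosphate receptor S1PR2 and the synaptic adhesion protein LRRC4B. In the brain the family is expressed mainly by neurons.

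Tafa1 was the 1 member with a large difference. Its log2 level (probe set 10540233) was 10.22, 10.71 and 10.80 in controls 1, 2 and 3, and 8.85, 8.64 and 8.56 in mutants 1, 2 and 3. Every mutant lay below every control, and a gap of 1.37 separated the lowest control from the highest mutant. The group means were 10.58 ± 0.31 (SD, n = 3) and 8.69 ± 0.15 (SD, n = 3), a log2 change of -1.89 (SE 0.143) or a 3.71-fold lower level. Of all genes, 0.176% had a larger difference in either direction, and 11 genes fell further than Tafa1, which was at position 12 from the lowest. Control 1 was the lowest of the controls and stood 0.354 below their mean. Without control 1 the change was -2.07, the largest value when 1 array was left out, and without control 3 it was -1.78, the smallest. In microdissected tissue a lower level cannot be assigned to fewer cells that express the gene or to less RNA per cell.

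Tafa2, which is closely related to Tafa1, differed little. Its log2 level (probe set 10366725) was 10.68, 10.75 and 10.53 in the controls and 10.50, 10.34 and 10.45 in the mutants. All mutants were again lower than all controls, but control 3 and mutant 1 were only 0.03 apart. The log2 change was -0.23 (SE 0.0731, 95% interval -0.39 to -0.06), a factor of 1.17, and 18.2% of all genes had a larger difference. Over 14 alternatives of processing, test or array set it ranged from -0.29 to -0.18.

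Tafa3 and Tafa4, which also encode neurexin-binding members, had the smallest differences of the family. Tafa3 (probe set 10500899) was at 6.71, 6.84 and 6.81 in the controls and at 6.86, 6.88 and 6.85 in the mutants, and the groups were separated by no more than 0.011. Its log2 change was 0.07 (SE 0.0549, 95% interval -0.05 to 0.20). Tafa4 (probe set 10546557) was at 5.61, 5.41 and 5.39 in the controls and at 5.39, 5.41 and 5.37 in the mutants, and here the groups overlapped. The highest value belonged to control 1, and the other 5 arrays lay close together. Its log2 change was -0.08 (SE 0.0686, 95% interval -0.24 to 0.07), and it was -0.012 without control 1. The Tafa4 values lie below the array medians over all probe sets of 6.29 to 6.36, and the Tafa3 values lie above them. Both genes were under the median level of the genes tested. Detection was not scored on the arrays, so it was not shown that either gene was above background.

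Tafa5, the most divergent member, was slightly higher in the mutants. Its log2 level (probe set 10426081) was 10.21, 10.22 and 10.27 in the controls and 10.41, 10.41 and 10.44 in the mutants. Every mutant lay above every control, with a gap of 0.137. The log2 change was 0.19 (SE 0.0503, 95% interval 0.07 to 0.30), a factor of 1.14, which is smaller in size than that of Tafa2. The replicates were the closest of the family, with a pooled SD of 0.0263 for Tafa5, 0.0994 for Tafa2 and 0.243 for Tafa1, where the median over all genes was 0.0796.

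**Figure D1:**
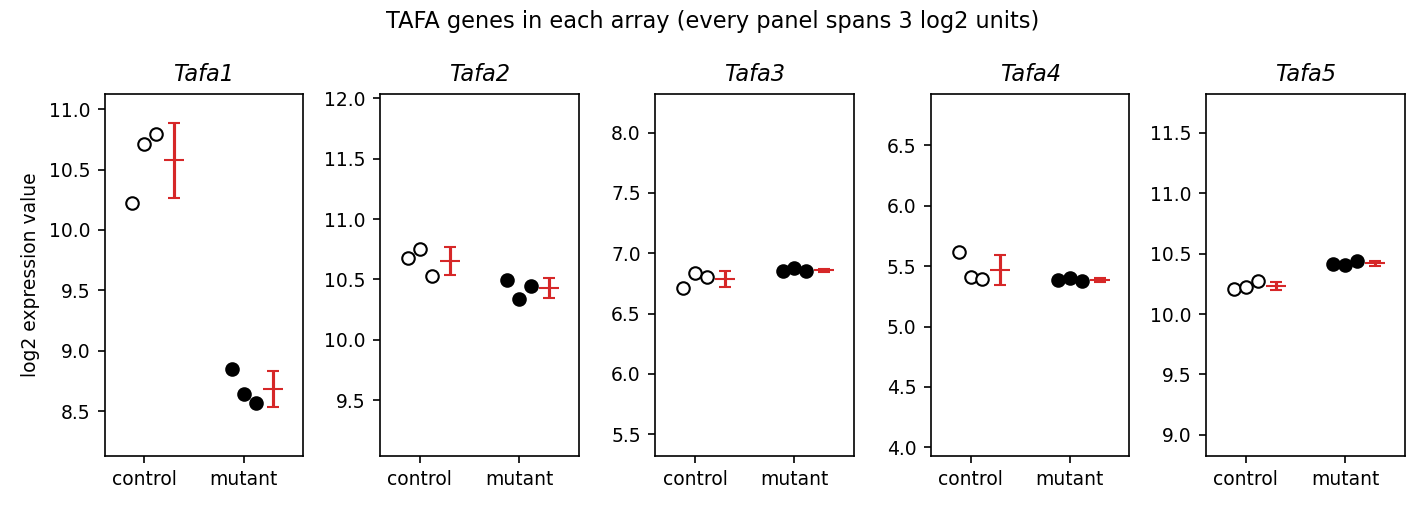
Log2 expression value of each TAFA gene on the vertical axis, with the 3 control arrays as open circles and the 3 mutant arrays as filled circles, and the mean and SD of each group in red (n = 3). Each panel spans the same range, so that distances can be compared between panels, and Tafa1, with means of 10.58 and 8.69, is the 1 gene whose groups lie far apart.

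Set against all genes, 2 of the 5 members, Tafa1 with a lower and Tafa5 with a higher level, passed the threshold of an adjusted p under 0.05 in limma. Of all genes, 15.2% passed it, 9.23% with a higher and 5.93% with a lower level in mutants. Brighter genes passed more often: 2749 passed when genes under the median level were left out and the rest tested again, beside 3023 with none left out. The 15.2% is therefore below the share among brighter genes and is not matched for level to any of the lists below. For 4 of the 5 members, all but Tafa4, the groups did not overlap, which was so for 31.6% of all genes. Because the same contrast entered the choice of the family, nothing is read from these counts. The counts over alternatives that follow reuse the same arrays and contrast, so they add no support. The level of Tafa1 passed under all 14 alternatives, whereas Tafa5 passed under 6 and Tafa2, which did not pass with all arrays, under 4. Tafa5 did not pass when any 1 array other than control 3 was left out, or with the replicate number as a block. It also did not pass under either other scaling. Its change was 0.14 with each array centred on its median over the genes tested, and 0.16 with renewed quantile normalization. Tafa2 passed with array weights, under both other scalings and without control 3. The sign of each member was the same under every alternative in which it was tested. Of the genes that passed, 60.9% were higher in mutants with the values as deposited and 44.2% with each array centred on that median. This centring took the median change of all genes from -0.0027 to -0.0512. The number of genes that passed, 3023 with all arrays, dropped to 1931 when control 2 was left out, and to 1886, 1954 or 1949 when mutant 1, 2 or 3 was left out.

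**Figure D2:**
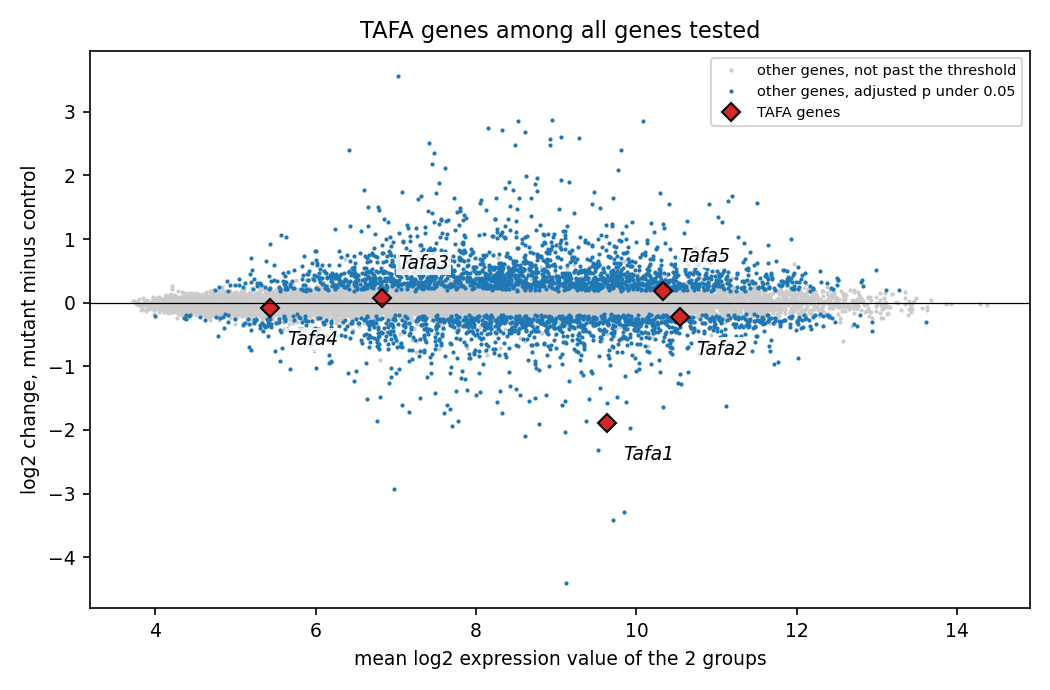
Log2 change (mutant minus control) on the vertical axis against the mean log2 expression value of both groups on the horizontal axis, for 19938 genes. Red diamonds are the 5 TAFA genes, of which Tafa1 lies at -1.89 and the other 4 between -0.23 and 0.19.

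**Figure D3:**
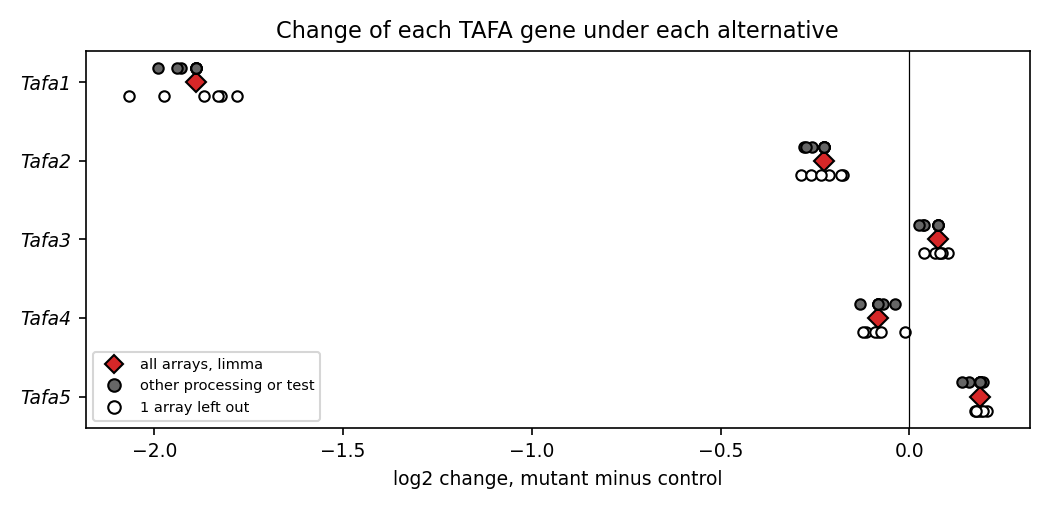
Log2 change (mutant minus control) of each TAFA gene on the horizontal axis. Red diamonds are the values with all arrays, filled circles other ways of processing or testing and open circles the values with 1 array left out. Tafa1 stays between -2.07 and -1.78 and no other member reaches a size of 0.3.

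Tafa1 and Tafa4 lie next to each other on chromosome 6, Tafa2 lies on chromosome 10, Tafa3 on chromosome 3 and Tafa5 on chromosome 15. No other protein-coding gene measured here starts between Tafa1 and Tafa4 in the gene order of the GRCm38.p6 assembly, and their log2 changes were -1.89 and -0.08. The 6 nearest measured coding genes, 3 on either side of Tafa1, had log2 changes between -0.24 and 0.38. The 1 of them that passed the threshold, Suclg2, was chosen after its value was seen. It encodes a subunit of a mitochondrial ligase of the citric acid cycle and had a log2 change of 0.21 (limma adjusted p = 0.0326, SE 0.0541).

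The 250 bases before the annotated start of 3 members are shown for these contrasting changes: Tafa1, its neighbour Tafa4, and Tafa5, which was slightly higher. The sequences are from RefSeq (GRCm38.p6) and run 5′ to 3′ along the strand of the gene. Capitals mark the 5 letters TGGGC or, for the other strand, GCCCA, a short motif that has been described for Bcl11b/Ctip2.
Tafa1, chr6:96112904-96113153, plus strand: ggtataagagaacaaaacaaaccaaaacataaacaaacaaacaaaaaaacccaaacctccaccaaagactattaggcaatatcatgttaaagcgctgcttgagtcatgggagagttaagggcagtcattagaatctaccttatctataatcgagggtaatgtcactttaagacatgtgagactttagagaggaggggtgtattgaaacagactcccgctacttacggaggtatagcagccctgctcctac
Tafa4, chr6:97060412-97060661, minus strand: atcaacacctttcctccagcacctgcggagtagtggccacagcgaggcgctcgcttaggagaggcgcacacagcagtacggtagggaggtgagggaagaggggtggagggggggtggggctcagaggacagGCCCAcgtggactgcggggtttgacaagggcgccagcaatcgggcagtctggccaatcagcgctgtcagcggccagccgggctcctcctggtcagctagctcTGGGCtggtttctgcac
Tafa5, upstream start, chr15:87544049-87544298, plus strand: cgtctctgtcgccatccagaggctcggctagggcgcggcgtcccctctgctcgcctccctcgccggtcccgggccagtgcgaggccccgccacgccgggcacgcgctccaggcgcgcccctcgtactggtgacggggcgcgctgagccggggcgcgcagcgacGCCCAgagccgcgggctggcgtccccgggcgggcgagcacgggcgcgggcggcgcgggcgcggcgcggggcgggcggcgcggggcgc
The Tafa1 window holds no match and is poor in G and C, with 40.8% of its bases and 4 CG dinucleotides. The Tafa2 window is alike in this, with 38.8%, 6 CG dinucleotides and no match. The Tafa4 window has 65.2% G and C and 2 matches, and that of Tafa3 has 52.4% and 2 matches. The upstream window of Tafa5 has 83.6% G and C, 48 CG dinucleotides and 1 match, and its other annotated start has 81.6%, 38 CG dinucleotides and 2 matches. Of 32851 windows of this length over all genes, 50.7% hold at least 1 match on either strand, and the medians are 52.4% G and C and 6 CG dinucleotides. A match of 5 letters is not a binding site, and the absence of a match says only that these letters are not in this window.

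The profile of Tafa1 over the 6 arrays was compared with those of other genes, each relative to its own control mean. Left out were genes whose symbol contains Rik, is Gm with a number, or starts with Olfr, Mir, Snor, n-R5, Rn or LOC. Likeness was measured as the root mean square of the difference on the log2 scale. The 5 most similar genes were Trpc6 (0.215), a calcium-permeable cation channel, St3gal1 (0.215), a sialyltransferase, and Fst (0.223), the secreted activin antagonist follistatin, followed by Ramp3 (0.241), a subunit of receptors for adrenomedullin and related peptides, and Rgs4 (0.264), a regulator of G protein signaling. Like Tafa1, Trpc6 was lowest among the controls in control 1, with 10.81, 11.15 and 11.50 in controls 1, 2 and 3 and 9.49, 9.52 and 9.52 in the mutants. The same held for Ramp3, with 7.45, 8.16 and 8.03 in the controls and 6.26, 6.18 and 6.37 in the mutants. Fst was at 9.02, 9.27 and 9.28 in the controls and at 7.75, 7.09 and 7.55 in the mutants, so that it too was lowest in control 1 among the controls, and its mutants lay farther apart than those of Tafa1. In St3gal1 the controls lay close together, at 9.76, 9.69 and 9.75, and the mutants were at 7.81, 7.94 and 7.73. Rgs4 was highest in control 1, with 11.02, 10.93 and 10.75 in the controls and 9.02, 9.03 and 8.77 in the mutants. These likenesses over 6 arrays rest mostly on the difference between the groups, which the choice of Tafa1 fixed.

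**Figure D4:**
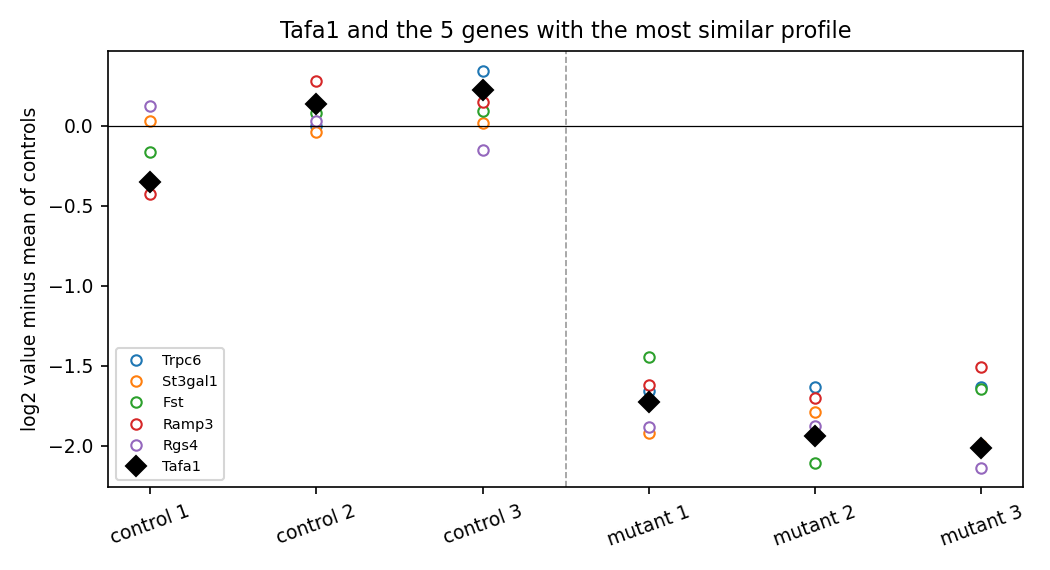
Difference from the control mean in log2 expression value (vertical axis) on each of the 6 arrays. Black diamonds are Tafa1, and open circles are the 5 genes of most similar profile among those compared. Tafa1 lies between -0.354 and 0.219 in the controls and between -2.01 and -1.73 in the mutants, and control 1 is the lowest control in Tafa1, Trpc6, Fst and Ramp3.

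Markers of the cells in and around the layer were compared beside the fall of Tafa1. Of 12 markers of mature granule cells, 8 were lower and 1, the enzyme Tdo2, was higher, or 75% of the list beside 15.2% of all genes, with a median log2 change of -0.65. With the methods' t-test after adjustment, 6 passed. Their mean log2 level was 11.14 to 11.16 in controls and 10.42 to 10.50 in mutants. The list holds Trpc6, whose profile is like that of Tafa1, and C1ql2, which the study chose on these samples. It also holds Dsp, with a log2 change of -0.81, which encodes desmoplakin, described by the study as a direct target of Bcl11b/Ctip2. Also lower were Calb1, Rfx3, Rasl10a, Lct and Stxbp6, with log2 changes of -0.97, -0.61, -1.09, -0.51 and -0.69. Prox1, Plk5 and Dock10, with log2 changes of -0.05, 0.17 and -0.14, did not pass. The mean level of 10 interneuron markers was 8.0 to 8.30 in controls and 8.04 to 8.17 in mutants, with a median log2 change of 0.02, and Gad1 and Npy were lower. That of 9 pyramidal and mossy cell markers was 7.22 to 7.27 and 7.09 to 7.18, with a median change of -0.12, where Fibcd1 was lower and Wfs1 higher. Microglia markers lay at 6.72 to 7.13 and 6.67 to 6.78. All 9 of them had log2 changes below 0, from -0.36 to -0.06 with a median of -0.26, and 1, Tmem119, passed as lower. Astrocyte markers lay at 8.83 to 9.13 and 9.04 to 9.26, with a median change of 0.09 and Gfap and Slc1a2 of 10 higher. Endothelial markers lay at 6.307 to 6.499 and 6.37 to 6.64, with a median change of 0.05 and Flt1 of 7 higher. Flt1 passed under 8 of 14 alternatives and did not under both other scalings or without control 3, mutant 2 or mutant 3. With the methods' t-test after adjustment, Fibcd1 passed, and 0 of the interneuron, astrocyte, microglia and endothelial markers did. Oligodendrocyte markers lay at 7.77 to 7.86 and 7.70 to 7.87, with a median change of -0.05. Of 9 oligodendrocyte markers none passed with limma, where 2 had an unadjusted p under 0.05, nor with the methods' t-test after adjustment. The part of these shifts in the values of the TAFA genes was not tested.

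Among genes for receptors and partners described for TAFA proteins, differences were small. Of 9 such genes, 6 could be analysed here, of which Nrxn2 was lower and Lrrc4b higher (33.3% beside 15.2% of all genes), with a median log2 change of -0.06 over the list beside -0.0027 over all genes. Nrxn2, a neurexin, averaged 10.52 ± 0.065 in the controls and 10.28 ± 0.030 in the mutants (SD, n = 3 each), lower by a log2 change of -0.23 (limma adjusted p = 0.0227, SE 0.0557). Nrxn3 averaged 10.20 ± 0.47 in the controls and 9.80 ± 0.14 in the mutants (SD, n = 3 each) and did not pass (limma adjusted p = 0.246). Lrrc4b, which encodes the TAFA5 partner, had a log2 change of 0.21 (limma adjusted p = 0.0366, SE 0.0561), in the same direction as Tafa5. The receptor genes S1pr2 and Gpr1 and the endocytic receptor gene Lrp1 had log2 changes of -0.02, -0.07 and -0.05 and did not pass. Neither call was firm: the count of 2 was 0 without control 2, without any 1 of the mutants, or with the methods' t-test after adjustment.

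Of 22 other binding partners of neurexins, 3 were higher and 2 lower, which is 22.7% of the list beside 15.2% of all genes, with a median log2 change of 0.001. The list averaged 9.33 in the controls, above the array medians over all probe sets of 6.29 to 6.36. Brighter genes passed more often, so no excess is read from this share. Igsf21, a partner of neurexin 2 at inhibitory synapses, had a log2 change of 1.80 (limma adjusted p = 4.46e-05, SE 0.126). Car10, which like the TAFA proteins binds neurexins inside the cell, had a log2 change of 0.87 (limma adjusted p = 0.00843, SE 0.166). It did not pass with the methods' t-test after adjustment. The calsyntenin Clstn3 had a change of 0.45. The 2 lower genes were Lrrtm4, a postsynaptic receptor, with -0.51, and C1ql2, a gene of interest of the study, with -3.29. The count was 8 without control 1.

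Enzymes that build and edit heparan sulfate, the sugar chain that TAFA proteins limit on neurexins, differed in both directions. Of 28 measured, 8 were higher and 5 lower, or 46.4% of the list beside 15.2% of all genes, with a median log2 change of 0.09. With the methods' t-test after adjustment, 6 passed. Ndst3 and Ndst4, sulfotransferases of the same step, moved in opposite ways. Ndst3 averaged 6.48 ± 0.23 in the controls and 8.15 ± 0.15 in the mutants (SD, n = 3 each), with a log2 change of 1.67 (limma adjusted p = 4.49e-05, SE 0.117). Ndst4 averaged 10.22 ± 0.16 and 8.88 ± 0.12 (SD, n = 3 each), with a log2 change of -1.34 (limma adjusted p = 4.04e-05, SE 0.0915). The chain polymerase gene Ext1 rose by 0.60, Fam20b, the kinase that acts on the linker of the chain, rose by 0.46, and the sulfotransferase gene Hs3st1 had a log2 change of -1.11. Of 13 proteoglycan core proteins, which carry such chains, 3 were higher and 1 lower, or 30.8% of the list beside 15.2% of all genes. These were the syndecan Sdc3 with 0.87, the glypican Gpc3 with 1.18, the co-receptor Tgfbr3 with 0.42 and the glypican Gpc4 with -0.24. Of these 4, Gpc3 and Gpc4 did not pass with the methods' t-test after adjustment.

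Chemokines are distantly similar to TAFA proteins. Of 15 chemokine and chemokine receptor genes measured, 1 passed, or 6.67% beside 15.2% of all genes, with a median log2 change of 0.04 over the list. This was Cxcl12, which guides migrating neurons and had a log2 change of -0.38 (limma adjusted p = 0.0243, SE 0.0924). Cxcr4, the receptor of Cxcl12, had the largest difference of the list and was chosen for mention after its value was seen. It had a log2 change of 0.69 (limma adjusted p = 0.0637, SE 0.212) and did not pass, although all mutants lay above all controls. No gene of the list passed as higher with limma, where 2 had an unadjusted p under 0.05, nor with the methods' t-test after adjustment. The count was 0 without control 2, mutant 1 or mutant 3, and 2 without control 3. The list averaged only 6.71 to 6.80 in the controls, and dim genes passed less often, so no lack of change is read from its share.

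**Figure D5:**
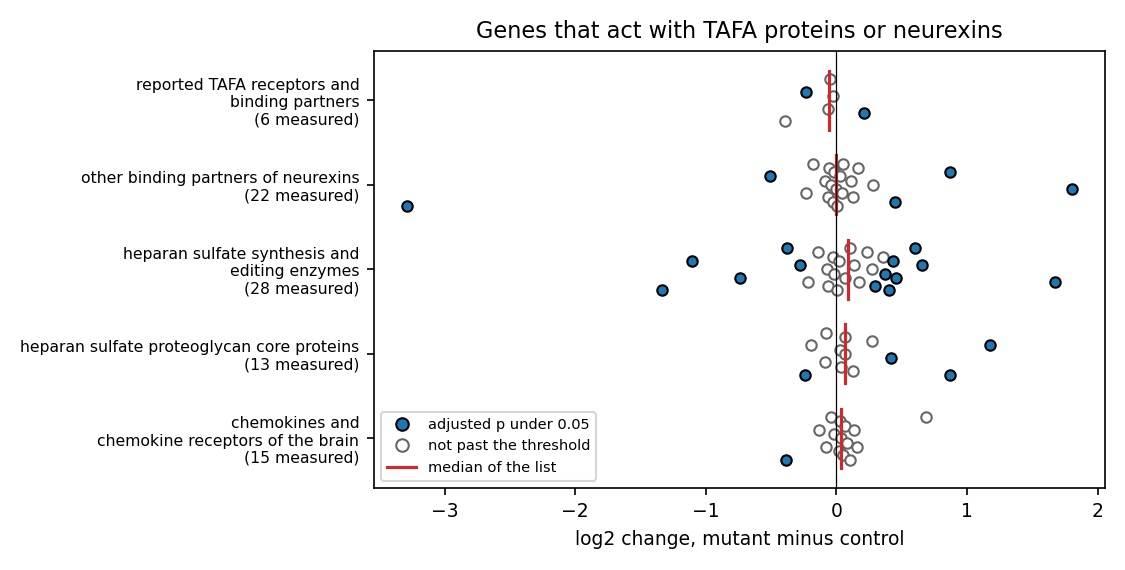
Log2 change (mutant minus control) on the horizontal axis for the measured genes of 5 lists. Filled circles passed an adjusted p under 0.05 in limma, open circles did not, and red lines are list medians, which lie between -0.06 and 0.09. Heparan sulfate enzymes lie on both sides of 0, from -1.34 to 1.67.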

How the data were processed

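RNA of 6 laser-captured granule cell samples was hybridized to 1-colour Affymetrix whole-transcript mouse arrays. The deposited table holds log2 values for 35556 probe sets, summarized by the authors with RMA (Expression Console), per the labels. RMA evens out the distributions of probe signals between arrays, so a shift common to all genes is largely removed. Medians of the deposited values over all probe sets lay between 6.293 and 6.358. Tool versions and the annotation build were not given in the sources used here. The platform annotation paired 21789 probe sets with 1 gene, 1621 with several, which were left out, and named no gene for 12146. For 999 genes with several probe sets the one with the highest mean was kept, which gave 19938 genes, without a filter on level.

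Mutants and controls were tested in R 4.3.3 by limma 3.58.1 without covariates, and a gene passed at a Benjamini-Hochberg adjusted p under 0.05, adjusted over the 19938 genes. The script was tested on simulated data. With 3 arrays a group, no exact permutation p falls under 0.1. The methods name an unpaired two-tailed t-test for comparisons between groups in general, and no test for the arrays. It was run here per gene and is called the methods' t-test, so its counts are not those of the study. Members and lists were chosen with earlier results of these data known. Lists came from general knowledge. Listed genes without a probe set of their own were not analysed here. Genes named are the members, Bcl11b, all TAFA partners and up to 5 genes of smallest p that passed in each other pathway list. Of the cell markers, those that passed are named, and for mature granule cells all that were measured. Suclg2 and Cxcr4 were chosen after their values were seen. The 5 profiles nearest to Tafa1, after the exclusion of symbols given above, are named too. No batch is given in the sources, and none was tested. Alternatives were other tests, variance models, array weights, a filter on dim genes, the mean of probe sets, other scalings, a replicate block and leaving out each array. Precision is limited by the number of arrays.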

Additional observations from a re-analysis of the deposited data

How the results depend on the processing

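The number of genes that passed, 3023 with all arrays, was 1141 with the methods' t-test after Benjamini-Hochberg adjustment, 4545 with that test at an unadjusted p under 0.05, and 5527 with array weights. It lay between 1886 and 4487 with 1 array left out. The change of Tafa3 was 0.026 with arrays centred on their medians over the genes tested. That of Tafa5 was 0.138 with centring and 0.157 with renewed quantile normalization. The changes of Tafa1, Tafa2 and Tafa4 moved by less than their replicate SD under each alternative. None of the TAFA genes has a further probe set, so no other probe set could be tried, and the filter on dim genes left Tafa3 and Tafa4 out. The 2 TAFA partners that passed became 0 with the methods' t-test after adjustment, 1 with centring, 1 with the replicate block and 0 to 2 with 1 array left out. Other neurexin partners numbered 5 to 8 with 1 array left out and 9 with the methods' t-test unadjusted. Heparan sulfate enzymes numbered 6 with the methods' t-test after adjustment, and core proteins 2 with that test and 7 with array weights. The count of 1 chemokine gene became 0 with the methods' t-test after adjustment and 3 with it unadjusted, 2 with the trend, 3 with array weights, 2 with the replicate block and 0 to 2 with 1 array left out. The replicate numbers are not said to pair the arrays, so they were not taken to do so. With group means removed, arrays of the same number correlated at 0.164, -0.0328 and 0.118. All pairs of a control and a mutant array ranged from -0.168 to 0.164, and with 3 arrays a group this cannot decide on pairing. The cause of the differences between alternatives was not tested.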
